A study of Mus musculus with 6 samples.

Results

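Wnt ligands, their receptors and their secreted inhibitors were followed in mouse skin. The members were all rows of the gene count table named Wnt, Fzd, Dkk or Sfrp with a number, plus Frzb, Wif1, Lrp5, Lrp6 and Axin2. This gave 36 of 14484 genes: 15 ligands, 12 receptors, 8 inhibitors and the target gene Axin2. Skin RNA had been sequenced from 3 ATR mD/mD libraries, with the genotype ATR fl/fl, Braf CA/+ and Cre +, and from 3 ATR WT libraries, with ATR +/+, Braf CA/+ and Cre +. In ATR mD/mD, a portion of the kinase domain of Atr, a DNA damage response kinase, is deleted. All 6 libraries thus carry the Braf CA allele and Cre, and the strain background is C57BL/6-129J. The study's design speaks of nevi, benign growths of pigment cells, and the labels give skin as the tissue. The sources used here give neither the promoter that drives Cre nor the age of the mice. They do not say whether each library came from its own animal, and the spread behind every p-value may in part be technical.

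Wnt proteins are secreted, lipid-modified signals. They bind Frizzled (Fzd) receptors, and with the co-receptors Lrp5 or Lrp6 they stabilise beta-catenin, which then activates target genes together with Tcf and Lef factors. Axin2 is such a target and also a brake on the pathway. Wnt5a and Wnt11 are best known for signals that do not pass through beta-catenin. Secreted frizzled-related proteins (Sfrp, Frzb) and Wif1 bind Wnt proteins outside the cell, whereas Dkk2 binds Lrp5 and Lrp6. In skin, Wnt signals are needed to form hair follicles and to start their growth phase.

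The libraries held between 34723600 and 46847751 gene counts. Levels are given as CPM, read counts relative to the TMM-scaled library total, always for libraries 1, 2 and 3 of a group in that order. The hair gene level, the mean log2 CPM of 30 genes of the hair shaft and its sheath, was -1.81, 1.67 and 7.48 in ATR mD/mD, against 1.03, 7.28 and 7.60 in ATR WT. ATR mD/mD 3, ATR WT 2 and ATR WT 3 were therefore rich in hair transcripts and the other 3 libraries poor, in both genotypes. The defining markers of skin were present in every library: basal keratinocyte markers summed to between 13037 and 14271 CPM in ATR mD/mD and between 9988 and 14613 CPM in ATR WT, and fibroblast markers to between 7744 and 16991 CPM in ATR mD/mD and between 14418 and 18250 CPM in ATR WT. Atr itself was at 4.38, 4.47 and 4.63 log2 CPM in ATR mD/mD, against 4.14, 4.62 and 4.60 log2 CPM in ATR WT. The groups overlapped, and since these counts cover the whole gene and not the deleted portion alone, they do not check the genotype labels. Libraries also differed in Xist, which silences an X chromosome in females, with 18050, 40 and 23 counts in ATR mD/mD and 37, 23005 and 29207 in ATR WT. Its part in the results was not tested.

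Promoters are shown for 4 members. Wnt11, Wnt5b and Fzd7 held the only member windows at hand with a Tcf/Lef core motif, and Axin2 is the target gene. The ligands Wnt11 and Wnt5b were high in the hair-rich libraries, the receptor Fzd7 was nearly even across libraries and Axin2 was low in the hair-rich ones. Each line holds the 250 bases before an annotated transcript start (RefSeq, GRCm38.p6), at chr7:98834862-98835111 on the plus strand, chr6:119449387-119449636 on the minus strand, chr1:59481897-59482146 on the plus strand and chr11:108920099-108920348 on the plus strand. The Wnt11 and Wnt5b windows were chosen among several starts because they held a motif. Capitals mark a Tcf/Lef core motif on either strand.
Wnt11: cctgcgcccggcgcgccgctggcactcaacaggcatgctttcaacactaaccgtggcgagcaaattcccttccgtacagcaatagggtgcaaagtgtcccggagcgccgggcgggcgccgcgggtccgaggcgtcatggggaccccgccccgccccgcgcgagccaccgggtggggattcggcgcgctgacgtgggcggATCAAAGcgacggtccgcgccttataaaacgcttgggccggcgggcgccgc
Wnt5b: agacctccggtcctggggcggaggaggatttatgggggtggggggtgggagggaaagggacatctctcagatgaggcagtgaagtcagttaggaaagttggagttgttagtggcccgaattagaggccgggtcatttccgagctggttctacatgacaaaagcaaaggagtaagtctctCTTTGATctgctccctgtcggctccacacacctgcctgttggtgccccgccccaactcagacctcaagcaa
Fzd7: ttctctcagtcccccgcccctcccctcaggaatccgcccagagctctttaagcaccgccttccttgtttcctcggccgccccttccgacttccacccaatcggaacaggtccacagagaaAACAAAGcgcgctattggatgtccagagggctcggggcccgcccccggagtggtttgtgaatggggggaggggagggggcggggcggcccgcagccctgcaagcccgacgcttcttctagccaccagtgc
Axin2: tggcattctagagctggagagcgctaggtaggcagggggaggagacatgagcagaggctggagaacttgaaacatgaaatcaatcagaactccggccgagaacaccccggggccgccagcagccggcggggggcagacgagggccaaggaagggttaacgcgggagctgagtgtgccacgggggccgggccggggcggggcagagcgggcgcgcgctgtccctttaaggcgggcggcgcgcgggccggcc
The motifs searched on both strands were CTTTGAT, held by 3.21% of all 32851 promoter windows of this length, CTTTGAA, held by 4.46%, CTTTGTT, held by 5.03%, and CTTTGTA, held by 3.2%. No printed window held overlapping matches. Wnt11 and Wnt5b each held CTTTGAT, which starts 51 bases (reverse strand) and 71 bases (forward strand) before the transcript start. Fzd7 held CTTTGTT on the reverse strand, 130 bases before the start, and the Axin2 window held none of the 4. RefSeq windows were at hand for 24 of the 36 members, 27 windows in all, of which 3 held a motif, those printed above. The windows of Fzd1, Fzd5 and Wif1, also high in the hair-rich libraries, held none. The relation of motif to hair level was not tested. Of all promoter windows, 14.84% held at least 1 of the 4 motifs. A match of these letters is a description and not a binding site.

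Across the 6 libraries, more Wnt genes divided the libraries by hair gene level than by genotype, and the same held over all genes. By genotype 1 of 36 members divided, against 4.84% of all genes. For 22 of 36 members the 3 hair-rich libraries all lay above or all below the other 3, against 36.7% of all genes. They lay above for 10 members, against 19.6% of all genes, and below for 12, against 17.1%. By class this held for 9 of 15 ligands, 5 of 12 receptors, 7 of 8 inhibitors and Axin2. The receptor count was near the 36.7% of all genes. The hair-rich libraries were not tested against the hair-poor ones, since the level is itself measured on them. It enters below as a covariate of the genotype test, and as the set within which a few genotype differences are described. In bulk skin, fewer cells of a type and less RNA per cell cannot be told apart.

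**Figure D1:**
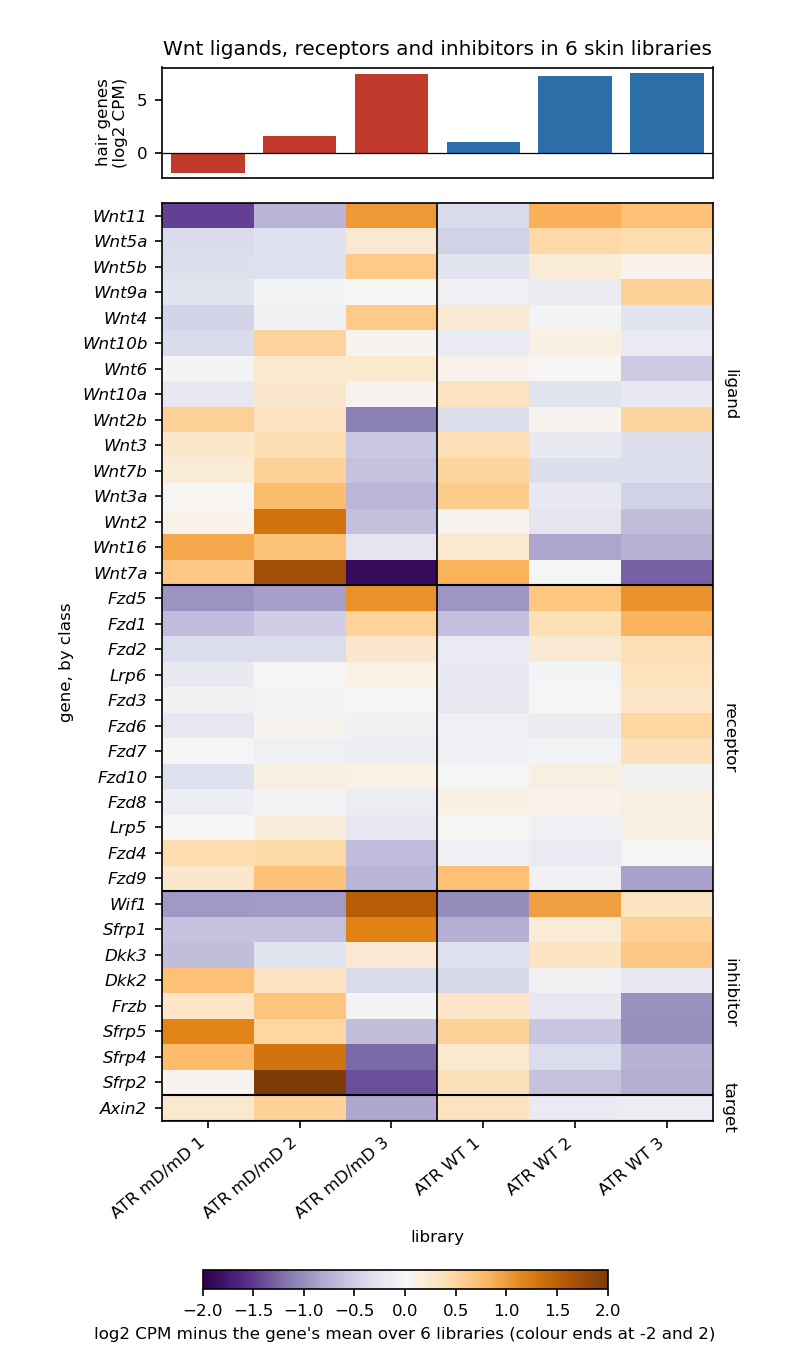
Each cell is a gene's log2 CPM minus its mean over the 6 libraries (orange above, purple below), with ATR mD/mD in the left 3 columns and ATR WT in the right 3, and the bars on top give the hair gene level. Within a class, genes run by their level in ATR mD/mD 3, ATR WT 2 and ATR WT 3, whose columns share a colour across the genotype line for genes such as Wnt11, Fzd5, Wif1 and Sfrp5.

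Of the ligands, Wnt11, Wnt5a and Wnt5b were higher in every hair-rich library. Wnt11 (chromosome 7, 98835112 to 98855195, plus strand, mm10) had 5.52, 9.37 and 30.9 CPM in ATR mD/mD, against 11.7, 27.4 and 24.7 CPM in ATR WT. The hair-rich libraries ran from 24.7 to 30.9 CPM and the others from 5.52 to 11.7 CPM, a 5.61-fold span from the lowest library to the highest, while the genotypes overlapped. Its log2 fold change was -0.48 (SE 0.661), -1.51 when ATR mD/mD 3 was left out, -0.077 when ATR mD/mD 1 was, and -0.093 with the hair gene level as a covariate. Wnt5a (chromosome 14, 28504750 to 28527448, plus strand) had 18.6, 19.5 and 27.9 CPM in ATR mD/mD, against 17.4, 32.9 and 32.4 CPM in ATR WT. Its 3 hair-rich libraries again stood above the rest, and the genotypes overlapped (log2 fold change -0.33, SE 0.291, adjusted p = 0.9999, edgeR quasi-likelihood). Leaving out a library gave log2 fold changes of -0.56 to -0.18. The exons of Wnt5a share 4.58% of their length with the antisense gene Gm2670, and these reads carry no strand. Wnt5b, the closest relative of Wnt5a, was at 9.44, 9.62 and 18.1 CPM in ATR mD/mD, against 9.82, 13.6 and 12.5 CPM in ATR WT. ATR mD/mD 3 was its highest library, and the 3 hair-poor libraries lay close together, from 9.44 to 9.82 CPM.

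Wnt3, Wnt3a, Wnt7a, Wnt7b, Wnt2 and Wnt16 went the other way, each lower in all 3 hair-rich libraries. Wnt3, which signals through beta-catenin, was at 35.6, 39.0 and 19.9 CPM in ATR mD/mD, against 38.1, 25.9 and 23.4 CPM in ATR WT. Hair-rich libraries held 19.9 to 25.9 CPM and hair-poor ones 35.6 to 39.0 CPM, with both genotypes in each range. Wnt7b, a ligand made by keratinocytes, was at 34.1, 43.2 and 19.6 CPM in ATR mD/mD, against 42.2, 24.0 and 23.8 CPM in ATR WT. Its lowest library was ATR mD/mD 3 and its highest ATR mD/mD 2, so that the ATR mD/mD range enclosed the ATR WT range. The exons of Wnt7b share 6.62% of their length with the antisense gene AU022754. Wnt3a, another beta-catenin ligand, was at 7.78, 12.8 and 4.72 CPM in ATR mD/mD, against 11.7, 6.74 and 5.55 CPM in ATR WT. It was highest in ATR mD/mD 2 and lowest in ATR mD/mD 3.

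Wnt16 was the member with the smallest genotype p. It was at 7.46, 6.35 and 3.35 CPM in ATR mD/mD, against 4.66, 2.21 and 2.35 CPM in ATR WT. ATR mD/mD 1 and 2 stood above all ATR WT libraries, while ATR mD/mD 3 was below ATR WT 1 (log2 fold change 0.90, SE 0.431, unadjusted p = 0.0788, adjusted p = 0.9999, edgeR quasi-likelihood). Wnt2 was at 2.20, 5.26 and 1.35 CPM in ATR mD/mD, against 2.12, 1.75 and 1.33 CPM in ATR WT. ATR mD/mD 2 alone was high, and without it the log2 fold change was 0.035 in place of 0.76. Wnt7a, of which the lowest library held 7 counts and all 6 together 248, was at 1.201, 2.56 and 0.200 CPM in ATR mD/mD, against 1.38, 0.759 and 0.307 CPM in ATR WT. Counts this low leave its 12.8-fold span between libraries imprecise.

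The other 6 ligands showed no division by hair level. Wnt4, an epidermal ligand and the most abundant Wnt gene by length-scaled level, spanned 61.9 to 129.6 CPM in ATR mD/mD and 70.6 to 98.7 CPM in ATR WT. Wnt10a, a ligand of the early hair follicle, spanned 27.4 to 37.4 CPM in ATR mD/mD and 25.9 to 39.7 CPM in ATR WT. Wnt10b, its close relative in the follicle, spanned 4.86 to 9.09 CPM in ATR mD/mD and 5.65 to 6.85 CPM in ATR WT. In these 3 genes the genotypes overlapped, and ATR mD/mD 3 was the highest library for Wnt4 alone. Wnt6 spanned 10.7 to 13.1 CPM in ATR mD/mD and 7.74 to 11.7 CPM in ATR WT. Wnt9a spanned 9.52 to 11.5 CPM in ATR mD/mD and 10.2 to 16.5 CPM in ATR WT. Wnt2b, among the least expressed ligands, spanned 0.544 to 1.74 CPM in ATR mD/mD and 0.938 to 1.68 CPM in ATR WT. The genotypes overlapped in these 3 genes too. Chromosome 1 carries Wnt6 and Wnt10a 6.2 kb apart on the same strand, and chromosome 11 carries Wnt3a and Wnt9a 16.2 kb apart on opposite strands. The hair-rich libraries were all low for Wnt3a and overlapped the others for its neighbour Wnt9a, and they overlapped for both Wnt6 and Wnt10a.

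Among the receptors, Fzd1, Fzd2, Fzd3 and Fzd5 were higher in each hair-rich library and Fzd9 lower. Fzd5 (chromosome 1, 64730558 to 64737751, minus strand) had 11.5, 12.2 and 47.1 CPM in ATR mD/mD, against 11.7, 35.3 and 47.1 CPM in ATR WT. The hair-rich libraries lay at 35.3 to 47.1 CPM and the hair-poor ones at 11.5 to 12.2 CPM, with a wide gap between them. Fzd1 (chromosome 5, 4753839 to 4758035, minus strand) had 58.0, 65.2 and 132 CPM in ATR mD/mD, against 59.5, 120.4 and 162 CPM in ATR WT. Its highest library was ATR WT 3, and its 3 hair-poor libraries differed little, at 58.0 to 65.2 CPM. Fzd2 was at 38.9, 38.9 and 59.9 CPM in ATR mD/mD, against 44.4, 58.5 and 65.4 CPM in ATR WT. The division was narrower here, 58.5 to 65.4 CPM in hair-rich libraries and 38.9 to 44.4 CPM in the rest. Fzd3, a receptor of planar cell polarity, was at 20.05, 20.6 and 20.95 CPM in ATR mD/mD, against 18.4, 21.5 and 25.9 CPM in ATR WT. Its hair-rich libraries were higher by very little, 20.95 CPM at the lowest against 20.64 CPM for the highest of the others. Fzd9 was at 3.66, 4.90 and 1.86 CPM in ATR mD/mD, against 4.99, 2.92 and 1.68 CPM in ATR WT. ATR WT 3 was its lowest library and ATR WT 1 its highest.

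Fzd7 and Fzd8 did not divide by hair level. Fzd7 (chromosome 1, 59482424 to 59486955, plus strand) had 82.4, 78.5 and 76.7 CPM in ATR mD/mD, against 79.1, 80.4 and 108 CPM in ATR WT. ATR WT 3 was high and the other 5 libraries lay together, with the genotypes overlapping (log2 fold change -0.17, SE 0.155, adjusted p = 0.9999, edgeR quasi-likelihood). Without ATR WT 3 the log2 fold change was -0.022. Fzd8 was the only member whose genotypes did not overlap, against 4.84% of all genes. It was at 8.41, 8.76 and 8.30 CPM in ATR mD/mD, against 9.87, 9.52 and 9.99 CPM in ATR WT. Every ATR mD/mD library was below every ATR WT library, with 8.49 ± 0.240 CPM in ATR mD/mD and 9.79 ± 0.243 CPM in ATR WT (SD, n = 3 each). The difference was small (log2 fold change -0.21, SE 0.155, unadjusted p = 0.229, adjusted p = 0.9999, edgeR quasi-likelihood) and did not pass. With the hair gene level as a covariate, Fzd8 had nearly the same value (log2 fold change -0.21, SE 0.173).

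Of the remaining receptors, Lrp5, Lrp6 and Fzd10 varied less than the median gene, and Fzd6 and Fzd4 more. The co-receptors Lrp5 and Lrp6, which pair with Frizzled receptors in beta-catenin signalling, overlapped between genotypes. Lrp5 spanned 66.8 to 86.8 CPM in ATR mD/mD and 72.4 to 84.0 CPM in ATR WT. Lrp6 spanned 94.3 to 114 CPM in ATR mD/mD and 93.8 to 136 CPM in ATR WT. Fzd10 spanned 32.6 to 43.9 CPM in ATR mD/mD and 38.0 to 43.6 CPM in ATR WT. Fzd6, which orients hairs in mouse skin, spanned 53.4 to 63.5 CPM in ATR mD/mD and 56.2 to 86.9 CPM in ATR WT, and its exons share 3.155% of their length with Gm26704 on the opposite strand. Fzd4, also a receptor of the non-Wnt ligand norrin, spanned 21.04 to 45.5 CPM in ATR mD/mD and 29.5 to 33.9 CPM in ATR WT, with ATR mD/mD 3 as its lowest library. Over all 12 receptors, the median range between the lowest and the highest library was 0.62 on the log2 scale, against 1.07 for ligands, 2.06 for inhibitors and 0.68 for all genes.

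The inhibitors varied most. Dkk3, Sfrp1 and Wif1 were higher in every hair-rich library. Dkk3 (chromosome 7, 112116017 to 112159057, minus strand), a Dickkopf relative that is not known to bind Lrp5 or Lrp6 as Dkk2 does, was at 48.3, 62.7 and 87.8 CPM in ATR mD/mD, against 60.7, 93.2 and 116 CPM in ATR WT. ATR WT 3 was highest and ATR mD/mD 1 lowest, and the genotypes overlapped (log2 fold change -0.44, SE 0.305, adjusted p = 0.9999, edgeR quasi-likelihood). Leaving out a library gave -0.70 to -0.23. Sfrp1 (chromosome 8, 23411502 to 23449632, plus strand) had 55.6, 55.8 and 194 CPM in ATR mD/mD, against 49.9, 96.9 and 124 CPM in ATR WT. The 3 hair-poor libraries were even, at 49.9 to 55.8 CPM, and ATR mD/mD 3 stood above both hair-rich ATR WT libraries. Wif1, which binds Wnt proteins directly, was at 7.61, 7.69 and 42.6 CPM in ATR mD/mD, against 7.25, 28.7 and 18.2 CPM in ATR WT. The pattern was that of Sfrp1, with hair-poor libraries at 7.25 to 7.69 CPM and ATR mD/mD 3 on top.

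Sfrp2, Sfrp4, Sfrp5 and Frzb were lower in every hair-rich library. Sfrp2 (chromosome 3, 83766321 to 83774316, plus strand) had 9.69, 46.4 and 3.58 CPM in ATR mD/mD, against 12.1, 6.14 and 5.55 CPM in ATR WT. ATR mD/mD 2 stood far above the other 5 libraries, and ATR mD/mD 3 was lowest of all, a 13.0-fold span, the widest of the members. The group values were 19.9 ± 23.2 CPM in ATR mD/mD and 7.92 ± 3.61 CPM in ATR WT (SD, n = 3 each), a difference smaller than the spread (log2 fold change 1.33, SE 0.892, adjusted p = 0.9999, edgeR quasi-likelihood). It changed sign to -0.25 without ATR mD/mD 2. The exons of Sfrp2 share 16.1% of their length with the antisense gene Gm26771. The read counter is not known, so reads there may have been counted for either gene or for neither.

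Sfrp4 was at 58.0, 86.5 and 14.5 CPM in ATR mD/mD, against 40.5, 27.1 and 20.7 CPM in ATR WT. Here too ATR mD/mD 2 was highest and ATR mD/mD 3 lowest (log2 fold change 0.85, SE 0.607, adjusted p = 0.9999, edgeR quasi-likelihood), and the value was 0.30 without ATR mD/mD 2. Sfrp5 was at 43.4, 27.2 and 12.4 CPM in ATR mD/mD, against 27.9, 13.0 and 9.62 CPM in ATR WT. ATR mD/mD 1 was highest, and the hair-rich libraries lay at 9.62 to 13.0 CPM. Frzb was at 8.21, 10.6 and 6.47 CPM in ATR mD/mD, against 8.27, 5.86 and 3.42 CPM in ATR WT. Its hair-rich libraries, at 3.42 to 6.47 CPM, stood below the hair-poor ones, at 8.21 to 10.6 CPM. Dkk2, which binds Lrp5 and Lrp6, was the only inhibitor whose hair-rich libraries overlapped the others. It spanned 21.4 to 45.8 CPM in ATR mD/mD and 20.8 to 26.7 CPM in ATR WT.

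Axin2 (chromosome 11, 108920349 to 108950783, plus strand), whose promoter is shown above, was at 49.1, 60.4 and 23.4 CPM in ATR mD/mD, against 52.4, 37.1 and 38.0 CPM in ATR WT. All 3 hair-rich libraries were below the hair-poor ones, and ATR mD/mD 3 was the lowest of all. The genotypes overlapped, with 44.3 ± 18.9 CPM in ATR mD/mD and 42.5 ± 8.61 CPM in ATR WT (SD, n = 3 each). The difference was within the spread (log2 fold change 0.059, SE 0.349, adjusted p = 0.9999, edgeR quasi-likelihood). The exons of Axin2 share 3.80% of their length with the antisense gene Gm11670.

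**Figure D2:**
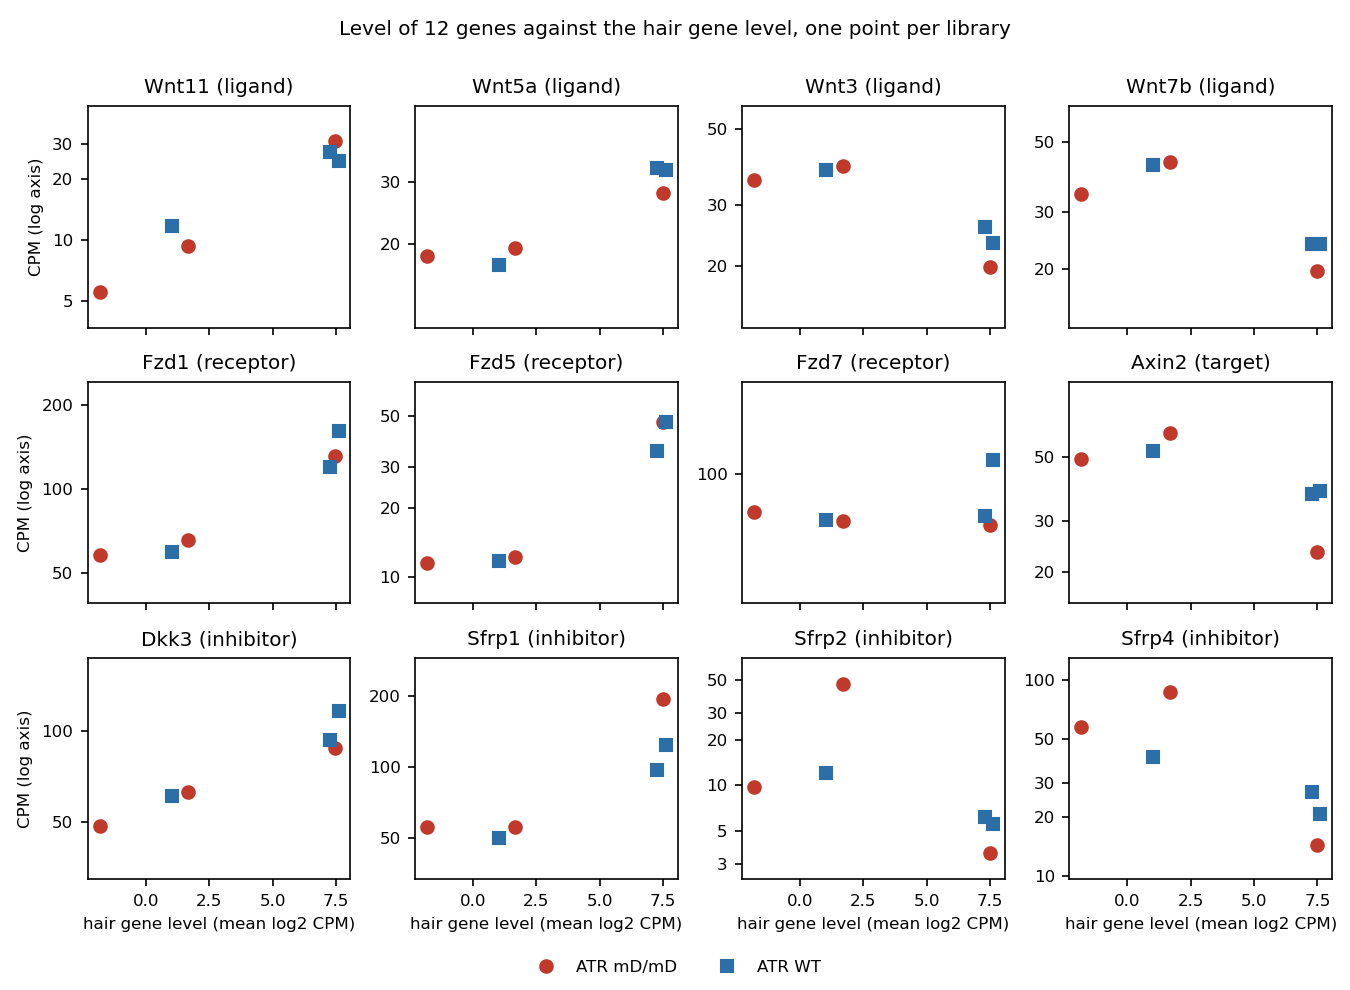
Each panel plots a gene's CPM (log axis) against the hair gene level, with circles for ATR mD/mD and squares for ATR WT, 1 point per library. The libraries form a hair-poor set and a hair-rich set, so no correlation was computed, and Fzd5 lies at 35.3 to 47.1 CPM in the hair-rich set and 11.5 to 12.2 CPM in the other.

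Some cell type markers divided the same way and others did not, against 36.7% of all genes. All 30 hair genes were higher in each hair-rich library, as used to define the level, and 2 of them had no count in at least 1 hair-poor library. Of 10 melanocyte markers, 9 were higher in each hair-rich library, with sums of 1083 to 1521 CPM in the hair-rich set and 280.8 to 431 CPM in the other. Of 7 dermal papilla markers 4 were higher and 2 lower, with sums of 64.5 to 114 CPM and 49.2 to 52.8 CPM. Of 6 differentiated epidermis markers 1 was higher and 4 lower, with sums of 6171 to 6816 CPM and 10108 to 14107 CPM. All 6 skeletal muscle markers were lower, with sums of 5531 to 9379 CPM in the hair-rich set and 15558 to 25231 CPM in the other, and 4 of 5 endothelial markers were lower, with sums of 204.4 to 232 CPM and 257.6 to 308 CPM. In the other lists the libraries divided for 0 of 9 fibroblast markers, 1 of 6 immune markers, 2 of 6 adipocyte markers, 2 of 6 Schwann cell markers and 3 of 7 basal keratinocyte markers. No marker of the melanocyte, dermal papilla, epidermis, muscle or endothelial lists was at 0 in any library. The part of these tissue differences in the Wnt gene levels was not tested.

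Further pathway genes were read from 6 lists, of which the target list also holds Axin2 and Wif1. Of the 79 different listed genes in the table, 29 were higher in each hair-rich library and 8 lower, against 19.6% and 17.1% of all genes. Of 16 nuclear genes, 6 were higher and 0 lower, and of 18 genes of the destruction complex and relay, 5 were higher and 1 lower. Both totals were close to the 36.7% of all genes that divide either way. By direction nearly all of these genes were higher, against 19.6% higher and 17.1% lower over all genes. The same shares stand beside the lists that follow. Of 22 other surface receptors and modulators, 11 were higher and 3 lower. Of 8 genes for R-spondins and receptor turnover 3 were higher and 1 lower, and of 4 secretion genes 1 was higher and 0 lower. Lef1, the Wnt-activated factor of the hair matrix, was at 7.38, 7.24 and 45.7 CPM in ATR mD/mD, against 7.67, 32.8 and 21 CPM in ATR WT, high in all 3 hair-rich libraries. Bambi, a target gene, was at 7.46, 11.7 and 47.7 CPM in ATR mD/mD, against 11.1, 41.2 and 43.8 CPM in ATR WT, and the hair-rich libraries again stood well above the rest. Of 17 target genes in the table, 5 were higher and 3 lower in each hair-rich library, and Axin2 was among the lower ones. Lef1 and Bambi were picked after their values were seen.

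Between the genotypes, no member passed the test. Of 36 members, 0 had an adjusted p under 0.05 (edgeR quasi-likelihood), against 0.0483% of all genes, and every member had an adjusted p of at least 0.9999. At an unadjusted p under 0.05 the count was 0 as well, against 1.66% of all genes. DESeq2 and limma-voom also called 0 members, and 0 had an unadjusted p under 0.05 with either. In the authors' deposited table the smallest p-value of a member was 0.0561, for Sfrp2 with a log2 fold change of 1.33, and its adjusted p was 1. A missed threshold with 3 libraries a group does not show that the levels were equal.

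By class, 11 of 15 ligands had a log2 fold change above 0, with a median of 0.11, and 2 of 12 receptors did, with a median of -0.13. Of 8 inhibitors, 7 were above 0, with a median of 0.52, and the exception was Dkk3. The median over all genes was 0.0070, with 7529 genes above 0 and 6955 (48.0%) below. With the hair gene level as a covariate the medians were -0.030 for ligands, -0.067 for receptors and 0.30 for inhibitors, so the ligand median changed sign. Each genotype has both kinds of library, but ATR mD/mD has 1 hair-rich library and ATR WT has 2. Without ATR mD/mD 3, 8 members had an unadjusted p under 0.05, against 7.01% of all genes, while 0 passed and the smallest adjusted p was 0.708 (edgeR quasi-likelihood). Groups separate more easily with a library fewer, and the ATR mD/mD libraries then left were both hair-poor. The genotypes did not overlap there in 9 members, against 22.1% of all genes. Without ATR WT 1 the ATR WT libraries left were both hair-rich, and 7 members did not overlap, against 17.2% of all genes. In these settings genotype and hair level are more confounded, and their parts were not tested. With ATR mD/mD 1 left out the count was 3, against 8.8%. It was 1 without ATR mD/mD 2, ATR WT 2 or ATR WT 3, against 10.5%, 8.33% and 9.33%. The ligand median turned to -0.095 without ATR mD/mD 2 and was 0.29 without ATR WT 1. The receptor median was -0.013 without ATR WT 3 and -0.19 without ATR WT 1. The inhibitor median lay between 0.40 and 0.72 without a library. Within the groups, the class median log2 CPM had an SD between libraries of 0.55 for inhibitors, 0.18 for ligands and 0.19 for receptors. In each class this exceeded the size of the median log2 fold change with all 6 libraries.

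**Figure D3:**
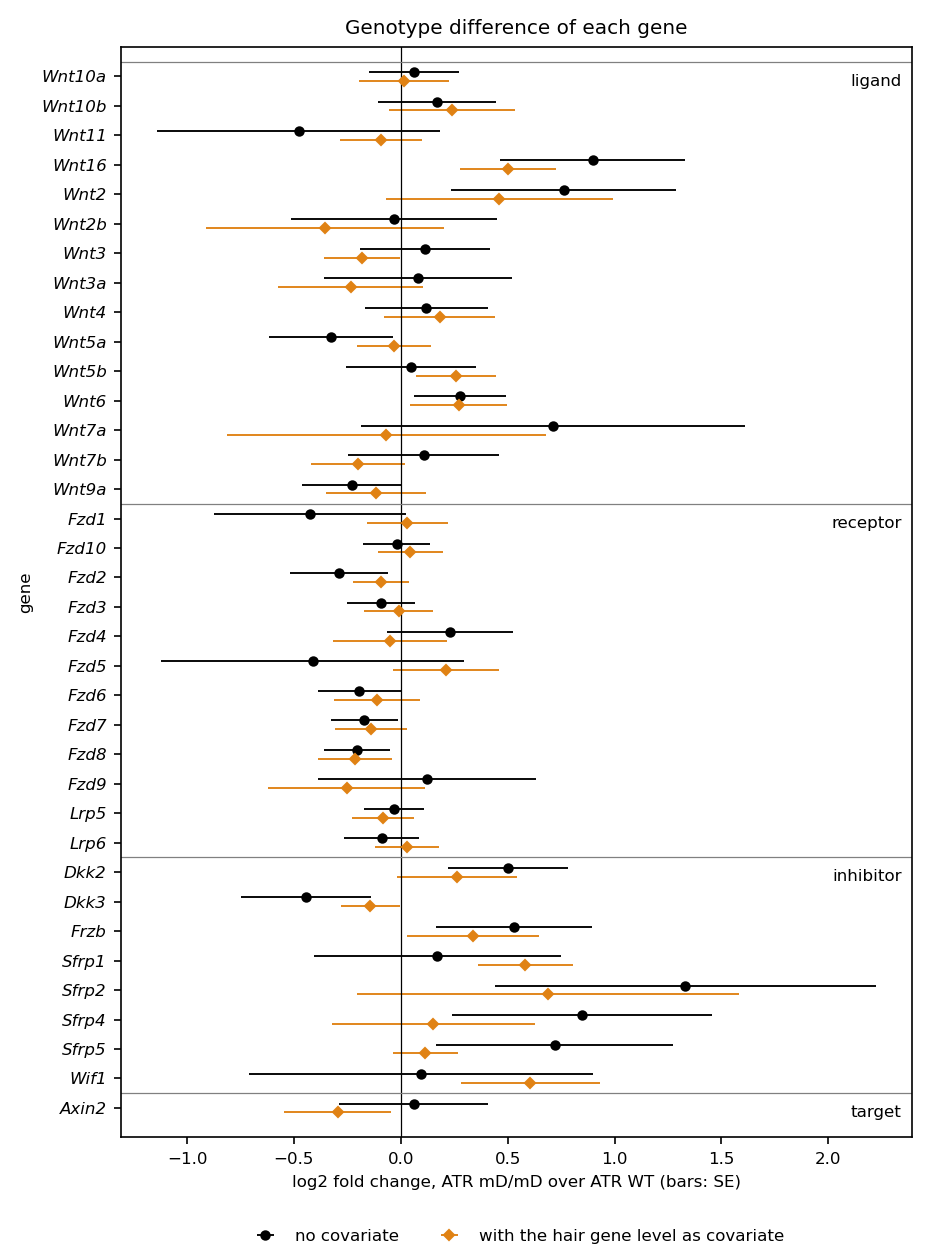
Points are log2 fold changes of ATR mD/mD over ATR WT and bars their SE, with no covariate (black circles) and with the hair gene level as a covariate (orange diamonds). The bars of 23 members span 0 without the covariate and of 26 with it, and the covariate draws Sfrp4 and Sfrp5 toward 0 and Sfrp1 and Wif1 away from it.

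With the hair gene level as a covariate, 0 members passed, against 0.0621% of all genes, and 1 had an unadjusted p under 0.05, against 3.85% of all genes. That member was Sfrp1 (log2 fold change 0.58, SE 0.222, unadjusted p = 0.0352, adjusted p = 0.9996, edgeR quasi-likelihood), whose log2 fold change was 0.17 without the covariate and -0.70 without ATR mD/mD 3. Among hair-rich libraries, Sfrp1 was at 194 CPM in ATR mD/mD 3, against 96.9 and 124 CPM in ATR WT 2 and 3, a log2 difference of 0.82. Among hair-poor libraries the log2 difference was 0.16. Wif1 differed by 0.90 and 0.077 in the same 2 sets and Axin2 by -0.68 and 0.054, on the log2 scale. These are examples, and other members differed otherwise. Wnt16, with the smallest genotype p, differed by 0.55 and 0.56, and Wnt2b, at low counts, by -1.37 and 0.77. The hair-rich differences rest on a single ATR mD/mD library, and no test was made of them. They also coincide with Xist, at 23 counts in ATR mD/mD 3, against 23005 and 29207 in ATR WT 2 and 3. Genotype and Xist cannot be told apart within the hair-rich set.

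The other pathway lists gave no call either. Over the 6 lists, 0 genes passed in either direction, against 0.0483% of all genes, and 0 had an unadjusted p under 0.05 (edgeR quasi-likelihood). DESeq2 and limma-voom called 0 of the listed genes too. Ccnd1, the cyclin D1 gene and a Wnt target, had the smallest p of the lists (0.0963), at 93.1, 111 and 133 CPM in ATR mD/mD, against 137, 169 and 127 CPM in ATR WT. Its lowest libraries were ATR mD/mD 1 and 2, and the genotypes overlapped (log2 fold change -0.36, SE 0.186). The genotypes did not overlap for 3 of the 79 listed genes, against 4.84% of all genes: Dvl1, higher in ATR mD/mD, and Csnk1d and Pygo2, lower there, none of which passed.

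Between genes, levels were compared per kilobase of exon (RPKM, from TMM-scaled CPM and GENCODE exon lengths). Dkk3 and Fzd1 led, with medians over the 6 libraries of 22.4 and 22.1 RPKM, followed by Wnt4 at 19.4, Fzd7 at 17.6 and Sfrp1 at 17.5. The library ranges of these 5 genes overlapped (14.4 to 34.7 RPKM for Dkk3, 11.4 to 44.3 RPKM for Sfrp1), so their order is not fixed. At the other end stood Wnt2b and Wnt7a, with medians of 0.320 and 0.309 RPKM. Sfrp2, with a median of 3.68 RPKM, ranged from 1.66 to 21.6 RPKM across libraries. In ATR mD/mD 2 it had the highest RPKM of the 36 members, followed by Sfrp4.

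**Figure D4:**
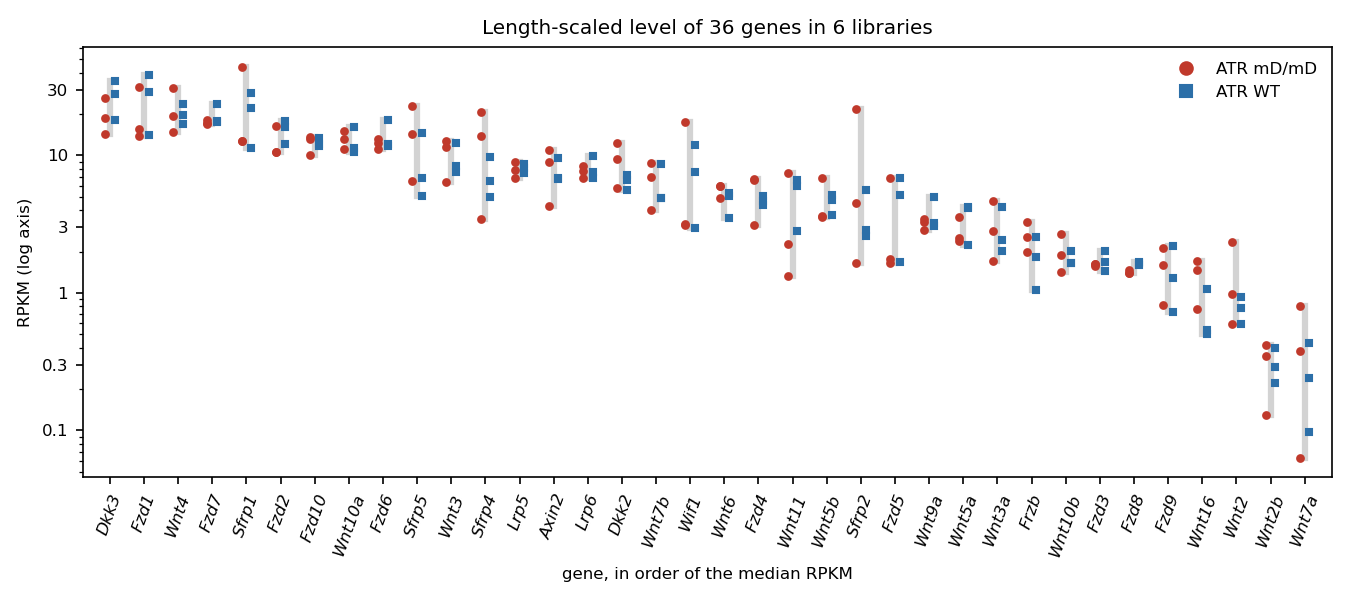
Each gene's RPKM (log axis) in 6 libraries, circles for ATR mD/mD and squares for ATR WT, in order of the median, with grey bars from the lowest to the highest library. Dkk3 has the highest median at 22.4 RPKM and Wnt7a the lowest at 0.309 RPKM.

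Summed over a class, receptors held 91.4, 100.4 and 119 RPKM in ATR mD/mD, against 94.5, 117 and 145 RPKM in ATR WT. The 3 hair-rich libraries had the highest receptor sums. Inhibitors summed to 86.4, 103.9 and 107 RPKM in ATR mD/mD, against 70.6, 86.9 and 90.8 RPKM in ATR WT, and ligands to 67.1, 85.8 and 87.1 RPKM, against 86.4, 73.7 and 69.1 RPKM. Neither the inhibitor nor the ligand sums divided the libraries by hair level, and each of these classes held members that were high and members that were low in the hair-rich libraries.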

How the data were processed

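RNA of homogenised skin was enriched for polyadenylated transcripts and made into TruSeq RNA v2 libraries, per the labels' protocols, whose reads carry no strand. FastQC, TopHat2 2.0.12 and edgeR with build mm10 are named in the submitters' processing notes, while the read counter and annotation were not given in the sources used here. Raw counts, whole numbers for each gene, were deposited for all 6 libraries. The same deposited table holds the authors' own log2 fold change, average log2 CPM, p-value and adjusted p-value per gene, per the file headers.

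Of 14486 rows, 2 name no gene (4.93% to 5.72% of counts) and were left out. The lowest total of a gene was 171 counts, and filterByExpr removed none. Counts were TMM-scaled (factors 0.923 to 1.04) and tested with edgeR 4.0.16 (quasi-likelihood, R 4.3.3), ATR mD/mD over ATR WT, without covariates, adjusted by Benjamini-Hochberg over 14484 genes. The method was tested on simulated data without a division by hair level, so its behaviour under that division was not checked. Each SE was derived from the log2 fold change and its F statistic (absolute change over root F). Log2 CPM used a prior count of 0.5. Positions and lengths come from GENCODE M21 (all 36 members matched), and promoters from RefSeq. Alternatives were RLE scaling, no filter, a 1 CPM filter in 3 libraries, DESeq2 1.42.0, limma-voom (limma 3.58.1), the replicate number as a block, the hair gene level as covariate and leaving out each library. Named in full were Wnt5a, Fzd7, Dkk3, Sfrp2, Axin2, members with an unadjusted p under 0.05, non-overlapping genotypes or a clean division by hair level, and the 6 widest-ranging. Of each pathway list, genes with an unadjusted p under 0.05 or else the 2 with the smallest p could be named. Csnk1d and Pygo2 (in a count of 3 with Dvl1), Lef1 and Bambi are exceptions, picked with their values in view. The members, lists and hair covariate were chosen with earlier results of these data known.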

Additional observations from a re-analysis of the deposited data

How the results depend on the processing

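No alternative called a member: the count was 0 under all 13 alternatives, of which the 2 filter settings removed no gene and so could change nothing. Over all genes, DESeq2 called 39 (33 lower, 6 higher) where edgeR's quasi-likelihood test called 7 lower and 0 higher. The hair gene level covariate gave 9 calls (8 lower, 1 higher). With a library left out there were 4 to 10 calls (4 to 9 lower, 0 to 1 higher). Leaving out a library gave 1 to 9 members with non-overlapping genotypes, against 8.33% to 22.1% of all genes in the same settings, and moved the ligand median log2 fold change between -0.095 and 0.29. RLE scaling and DESeq2 changed no member's sign. Limma-voom turned Wnt5b (-0.025), Wif1 (-0.26) and Axin2 (-0.018). The replicate block turned the same 3 (-0.0059, -0.17 and -0.030) and called 6 genes and 0 members, with 3 members at an unadjusted p under 0.05, against 2.13% of all genes, a count added after the data were seen. Same-numbered libraries correlated at 0.642, -0.46 and 0.583 in their deviations from the group means. ATR mD/mD 2 and 3 correlated best with another number. Libraries alike in hair gene level correlated positively and unlike ones negatively, so these values cannot show whether the numbers pair the samples. The hair gene level covariate turned 11 members: Wnt3 (-0.18), Wnt3a (-0.23), Wnt7a (-0.068), Wnt7b (-0.20), Fzd1 (0.030), Fzd10 (0.045), Fzd4 (-0.051), Fzd5 (0.21), Fzd9 (-0.25), Lrp6 (0.028) and Axin2 (-0.30). Leaving out a library turned 20 members, and 13 of 36 kept their sign in every setting. The log2 fold changes without a library ran, for ligands, over -0.053 to 0.29 (Wnt10a), -0.10 to 0.37 (Wnt10b), -0.33 to 0.33 (Wnt2b), -0.070 to 0.37 (Wnt3), -0.35 to 0.47 (Wnt3a), -0.23 to 0.33 (Wnt4), -0.33 to 0.21 (Wnt5b), -0.21 to 1.33 (Wnt7a), -0.16 to 0.45 (Wnt7b) and -0.35 to 0.016 (Wnt9a). For receptors they ran over -0.10 to 0.11 (Fzd10), -0.19 to 0.031 (Fzd3), -0.31 to 0.023 (Fzd6), -0.21 to 0.61 (Fzd9), -0.13 to 0.059 (Lrp5) and -0.18 to 0.068 (Lrp6). For the others they ran over -0.70 to 0.47 (Sfrp1), -0.25 to 1.83 (Sfrp2), -1.24 to 0.60 (Wif1) and -0.23 to 0.36 (Axin2). The cause of these changes was not tested. Counting depth limits Wnt7a, Wnt2b and Wnt2 most, whose lowest libraries held 7, 19 and 47 counts.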
